A study of Arabidopsis thaliana with 64 samples.

Results

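The 42 genes described here are the nuclear genes of Arabidopsis thaliana for the chlorophyll-binding antenna and the small subunits of the photosystems, chosen by name and locus from 28775 genes in the deposited table. They are 9 genes of the major antenna of photosystem II (LHCB1 to LHCB3, whose proteins form trimers), 5 of its minor antenna (LHCB4 to LHCB6), 6 of the photosystem I antenna (LHCA), 12 of photosystem I subunits (PSA) and 10 of photosystem II subunits (PSB, with PSBS). RNA from leaves of 4-week-old plants, grown with 16 hours of light a day, was sequenced in 40 libraries of 5 genotypes and 3 treatments. WT is the wild type. The allele atg7-2 disrupts ATG7, the activating enzyme of autophagy. DSK2 RNAi is a knockdown line for DSK2 ubiquitin receptors, which deliver proteins to autophagy. The allele bes1-D is a dominant gain of function of BES1, a transcription factor of brassinosteroid signalling. The allele bri1-301 is a weak allele of the brassinosteroid receptor gene BRI1. Each genotype was left as a control (3 libraries), dehydrated for 4 hours (3 libraries) or starved of fixed carbon for 5 days (2 libraries).

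Light-harvesting proteins bind chlorophyll and carotenoids and pass excitation energy to the reaction centres of photosystem II, which oxidises water, and photosystem I, which reduces ferredoxin. The reaction centre proteins are made in the chloroplast, whereas the antenna and many peripheral subunits are encoded in the nucleus, made in the cytosol and imported. In mature leaves their genes are among the most strongly expressed in mesophyll cells and respond to light, sugar and the circadian clock.

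Values are the deposited RPM, read counts scaled by library depth, and a change is a difference of log2(RPM + 0.5), which understates the change of low genes. The libraries held 26634819 to 30375860 recovered reads, and 3 reads, taken as the floor, were 0.101 to 0.114 RPM. Changes were tested with limma across 19824 genes, all 42 antenna and photosystem genes among them, and a gene is called where the adjusted p is under 0.05. Nothing in the labels says that replicates were separate plants, so a p-value reflects how far these libraries scatter, which could be technical scatter alone. In 7 libraries the slope of expression on transcript length lay over 3 median absolute deviations from the median library: WT dehydration replicate 3, WT starvation replicate 1, bes1-D control replicate 3, bes1-D dehydration replicate 3, both bes1-D starvation libraries and bri1-301 starvation replicate 1. The leaf label was checked against mesophyll genes. RBCS1A, RCA and CA1 together reached 13208 to 22524 RPM in control libraries and 522 to 1287 RPM in starved ones. Of the treatment checks, RAB18, a dehydrin gene, rose by a log2 of 1.31 under dehydration but by far more, 6.27, under starvation, with medians of 14.4, 46.8 and 1795 RPM in control, dehydrated and starved libraries. DIN6, the dark-inducible asparagine synthetase gene, rose by 2.77 under starvation. The list of 7 checks also holds RD29A, DIN1, DIN10, NYE1 and SAG12, whose values are not given here.

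In control leaves the antenna and photosystem transcripts were a large part of the RNA. The 42 genes together held 11.3% of the reads of the lowest control library, 15.4% of the median one and 24.9% of the highest. Levels between genes are compared per kb of transcript, as means ± SD over the 15 control libraries. LHCB1.5 (18167 ± 6552 RPM per kb) and LHCB1.3 (14597 ± 5395) were the highest and differed by less than their spread. They were followed by PSBR (9356 ± 3299), which encodes a photosystem II subunit near the oxygen-evolving complex, and then by PSAG (6045 ± 1214), LHCA1 (5067 ± 868) and PSAL (5019 ± 1356), whose spreads overlap. At the low end stood LHCA6 (29.4 ± 7.69), LHCB4.3 (33.1 ± 9.16) and LHCA5 (81.5 ± 8.02). LHCA5 and LHCA6 link photosystem I to the NADH dehydrogenase-like complex, and LHCB4.3 is a minor form of the LHCB4 antenna. In WT alone, the most abundant member of each class in control was LHCB1.5 (17916 ± 1157 RPM per kb, SD, n = 3), LHCB4.1 (3390 ± 328), LHCA1 (5247 ± 409.5), PSAG (6749 ± 684) and PSBR (8944 ± 1190.4).

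**Figure D1:**
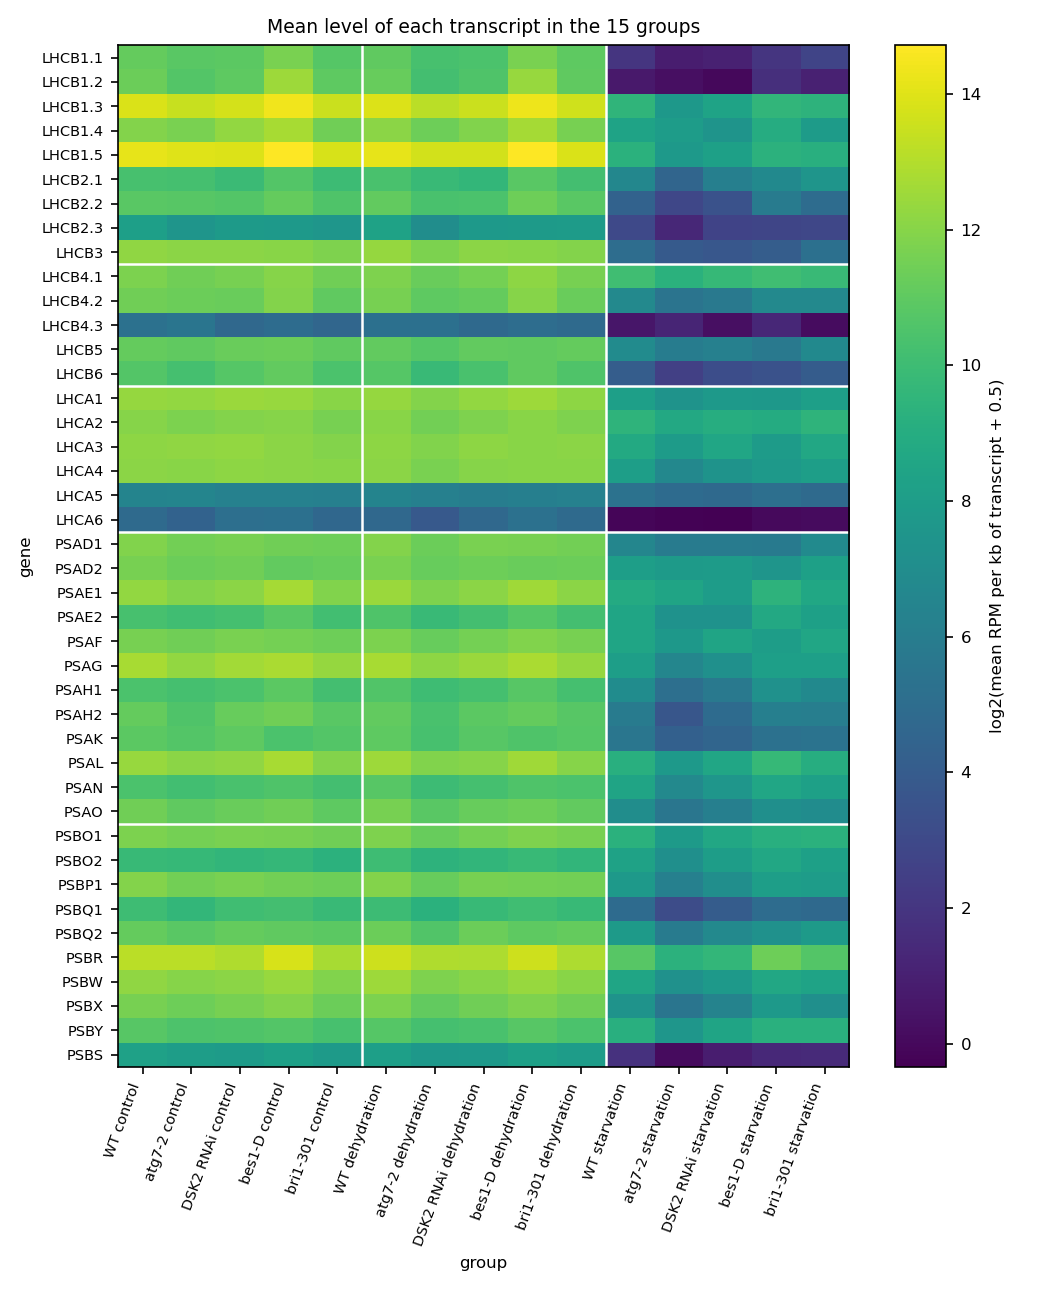
Mean level of each of the 42 transcripts (rows, in classes set apart by white lines) in the 15 groups (columns), coloured by log2 of mean RPM per kb of transcript plus 0.5; groups have 3 libraries, or 2 under starvation. Control and dehydration columns look alike, starvation columns are darker in every row, and LHCB1.5 and LHCB1.3 are the brightest rows outside starvation.

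LHCB1.1, LHCB1.2 and LHCB1.3 are near-identical in their coding sequence. LHCB1.1 and LHCB1.2 differ at 35 of 804 coding positions (95.6% identity), LHCB1.1 and LHCB1.3 at 31, and LHCB1.2 and LHCB1.3 at 29. A stretch of 60 coding bases, read from RefSeq assembly TAIR10.1, is shown because it holds several of these differences close together. It lies at chr1:10475809-10475868 (minus strand) for LHCB1.1, chr1:10473163-10473222 (minus strand) for LHCB1.2 and chr1:10478095-10478154 (plus strand) for LHCB1.3, is exonic in each gene, and has in capitals the 8 positions at which the genes are not all alike.
LHCB1.1: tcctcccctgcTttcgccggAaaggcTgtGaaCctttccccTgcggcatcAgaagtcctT
LHCB1.2: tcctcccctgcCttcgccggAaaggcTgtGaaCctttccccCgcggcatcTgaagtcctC
LHCB1.3: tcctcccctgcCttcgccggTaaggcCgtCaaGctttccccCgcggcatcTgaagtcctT
Of all 50-base windows of its transcript, LHCB1.1 shares 20.5% exactly with another annotated transcript, LHCB1.2 10.6% and LHCB1.3 22%. Every window of LHCB1.5 lies on the other strand of an annotated long non-coding RNA (AT2G08665). PSAG overlaps opposite-strand genes over 58.8% of its windows, PSAH1 over 49.2% and LHCB2.3 over 38.6%. The rule for reads that match several genes, and the use of strand in counting, are not given in the sources at hand, so the values of these genes are uncertain to that extent.

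After 5 days of starvation every one of the 42 transcripts fell, in each genotype and in the mean response of the 5 genotypes. Their share of the library dropped to 0.532% in the lowest starved library, 1.17% in the median one and 1.58% in the highest. In the mean response all 42 were called lower, against 48.9% of all genes tested. In single genotypes the 42 called members stood beside 35.7% of all genes called lower in WT, 47.2% in atg7-2, 36% in DSK2 RNAi, 39.9% in bes1-D and 32.3% in bri1-301. The median mean change of the members was a log2 of -4.44, between -10.68 for LHCB1.2 and -1.34 for LHCA5, beside a median of -0.26 over all genes tested. All 42 fell at least 2-fold, 38 beyond 4-fold, 25 beyond 16-fold and 6 beyond 64-fold. In all 42, every starved library of the 5 genotypes lay below every control library, as it did in 16.9% of all genes tested. Scaling by the median of ratios moved the median of all genes in this comparison from -0.26 to -0.01 and that of the members from -4.44 to -4.17. In such bulk samples, fewer cells of a type and less RNA per cell cannot be told apart.

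The classes fell by different amounts. The median mean change was a log2 of -5.35 for the 9 trimer antenna genes, -4.84 for the 5 minor antenna genes, -4.11 for LHCA, -3.80 for PSA and -3.94 for PSB. The ranges of the classes overlap widely, and no test between classes was run. Among the reads of the 42 genes, the trimer antenna held 32.4% to 48.3% (median 35.6%) in control libraries and 11.7% to 18.8% (median 15.2%) in starved ones. The PSB genes moved the other way, from 16.5% to 20.9% (median 19.4%) in control to 25.2% to 37.5% (median 31.8%) under starvation. The minor antenna share rose as well, from 8.23% to 9.14% (median 8.47%) in control to 11.6% to 16.8% (median 13.7%) under starvation. None of these classes had a starved library within its control range. The LHCA share was 15.4% in the median control library and 18.2% in the median starved one, with overlapping ranges. The PSA share was 21.0% in the median control library and 21.6% in the median starved one, with overlapping ranges.

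The trimer antenna had the lowest median in each genotype, and the minor antenna the next. In WT the median starvation change was a log2 of -5.16 for the trimer antenna, -4.70 for the minor antenna, -3.67 for LHCA, -3.52 for PSA and -3.50 for PSB. In atg7-2 these medians were -6.28, -5.06, -4.49, -4.71 and -4.84, in DSK2 RNAi -5.67, -5.05, -4.21, -4.42 and -4.33, in bes1-D -5.25, -5.14, -4.24, -3.63 and -3.56 and in bri1-301 -4.67, -4.30, -3.54, -3.35 and -3.25. The order of LHCA, PSA and PSB differed between genotypes. Each class was lowest in atg7-2 apart from the minor antenna, where bes1-D was lower. Over all 42 genes the medians were -4.16 in WT, -5.10 in atg7-2, -4.75 in DSK2 RNAi, -4.18 in bes1-D and -3.88 in bri1-301.

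The proportion of trimer antenna reads was alike in control and dehydrated leaves, with higher group means in bes1-D. The trimer antenna made 35.8% ± 2.39 of the reads of the 42 genes in WT control (SD, n = 3), 35.2% ± 0.799 in atg7-2, 34.8% ± 2.08 in DSK2 RNAi and 35.1% ± 1.54 in bri1-301. In bes1-D it made 42.2% ± 5.43, from libraries of 40.2%, 38.0% and 48.3%, where WT control replicate 2 had 38.4%. The library at 48.3%, replicate 3, is the highest of all control libraries and among those set apart by length slope. After dehydration it was 34.9% ± 0.967 in WT and 43% ± 1.54 in bes1-D. As a share of the library, the 42 genes together held 16.3% ± 1.08 in WT control and 17.3% ± 1.8 in dehydrated WT. In atg7-2 they held 13.9% ± 1.4 and 11.5% ± 0.609, in DSK2 RNAi 15.4% ± 2.42 and 13.8% ± 1.02, in bes1-D 19.9% ± 4.71 and 19.6% ± 0.831, and in bri1-301 13% ± 2.59 and 14.1% ± 0.842. These shares are given as values, with no test.

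**Figure D2:**
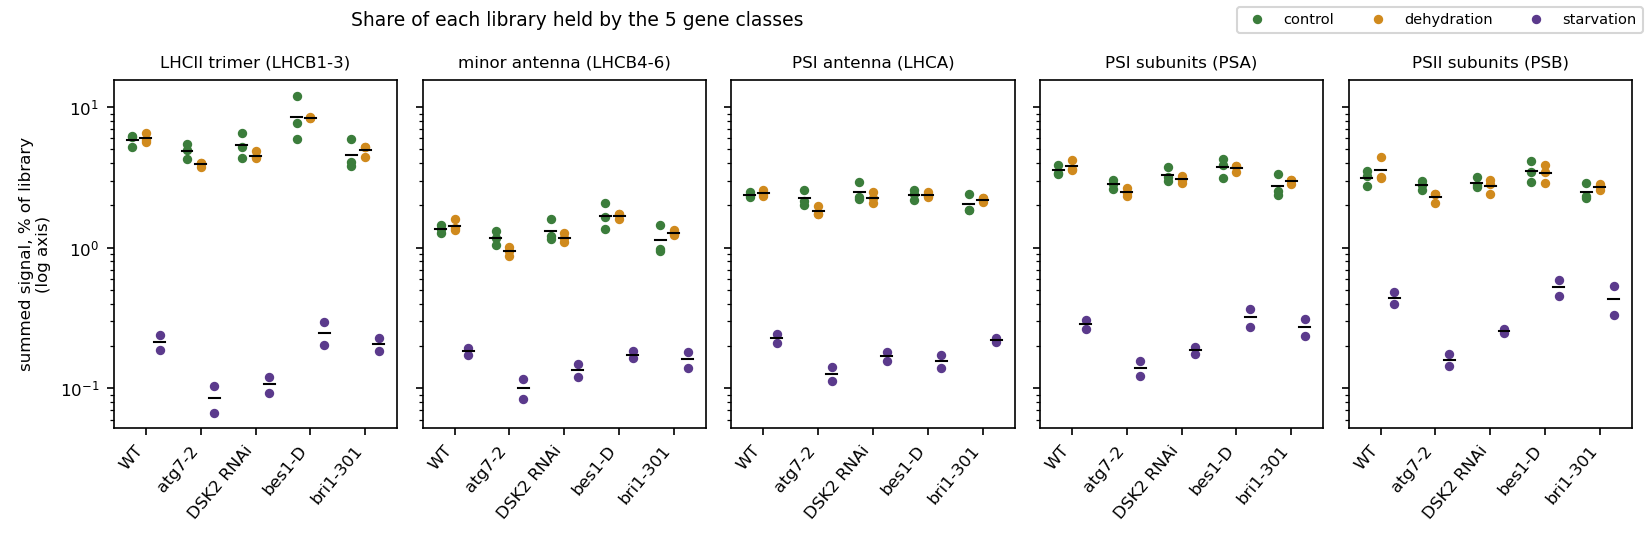
Summed signal of each gene class as a percent of the library (vertical log axis) in every library (points) of the 5 genotypes, coloured by treatment, with the group mean as a bar. Control and dehydration points of a class overlap, whereas all starved points lie far below them, at 0.0673% to 0.297% for the trimer antenna against 3.84% to 12.0% in control, and the lowest starved point of each class is an atg7-2 library.

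The trimer antenna genes are LHCB1.1 (AT1G29920), LHCB1.2 (AT1G29910), LHCB1.3 (AT1G29930), LHCB1.4 (AT2G34430), LHCB1.5 (AT2G34420), LHCB2.1 (AT2G05100), LHCB2.2 (AT2G05070), LHCB2.3 (AT3G27690) and LHCB3 (AT5G54270). Of these, LHCB1.2 and LHCB1.1 fell further than their near-identical copy LHCB1.3. The lowest, median and highest LHCB1.2 values were 1706, 2704 and 10406 RPM in the 15 control libraries and 0.205, 1.44 and 4.61 RPM in the 10 starved ones (log2 -10.68, SE 0.14, adjusted p = 1.07e-32). The lowest starved value is 6 reads. LHCB1.1 went from 1874, 2792 and 6255 RPM to 1.06, 3.5 and 9.46 RPM (log2 -9.41, SE 0.12). LHCB1.3 kept 189.5, 708 and 1157 RPM of 11729.7, 17039 and 37969.8 RPM (log2 -4.88, SE 0.12). Every starved LHCB1.3 library lay above every starved LHCB1.1 and LHCB1.2 library, and the gap to these copies was far wider than in control. LHCB1.5 fell somewhat further than LHCB1.3 (log2 -5.35, SE 0.10) and LHCB1.4 less far (log2 -3.84, SE 0.14). LHCB3, whose protein also takes part in trimers, fell from 3931, 5138 and 6933 RPM to 14.8, 21.2 and 46.1 RPM (log2 -7.67, SE 0.09). Among the LHCB2 genes, whose proteins carry the phosphorylation site used in state transitions, LHCB2.2 fell the most (log2 -6.47, SE 0.10), LHCB2.3 less (log2 -5.25, SE 0.11) and LHCB2.1 least (log2 -3.88, SE 0.11).

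The minor antenna, LHCB4.1 (AT5G01530), LHCB4.2 (AT3G08940), LHCB4.3 (AT2G40100), LHCB5 (AT4G10340) and LHCB6 (AT1G15820), connects the trimers to the photosystem II core, and here LHCB4.1 stood apart from the other members. LHCB4.1 had 2965, 4261 and 7406 RPM in control and 735, 1392 and 1658 RPM under starvation (log2 -1.81, SE 0.10). LHCB4.2, which encodes nearly the same protein, had 2145, 3553 and 6415 RPM and 42.5, 120.4 and 155 RPM (log2 -5.12, SE 0.10). Their ranges overlap in control, whereas the highest starved LHCB4.2 library lay far below the lowest starved LHCB4.1 library. LHCB4.3 fell from 23.7, 44 and 65.4 RPM to 0.57, 1.28 and 2.93 RPM (log2 -4.42, SE 0.11). LHCB6 was lowered most in the class, from 1409, 1826 and 3694 RPM to 5.23, 13.5 and 23.2 RPM (log2 -7.20, SE 0.11), and LHCB5 fell as well (log2 -4.84, SE 0.09).

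The photosystem I antenna is built from LHCA1 with LHCA4 and LHCA2 with LHCA3. The genes are LHCA1 (AT3G54890), LHCA2 (AT3G61470), LHCA3 (AT1G61520), LHCA4 (AT3G47470), LHCA5 (AT1G45474) and LHCA6 (AT1G19150). LHCA1 and LHCA4 fell by nearly the same amount, from 4234, 6142 and 8227 RPM to 169, 279.9 and 365 RPM (log2 -4.46, SE 0.08) and from 4834, 5759 and 6186 RPM to 119, 293 and 386 RPM (log2 -4.47, SE 0.07). LHCA2 (log2 -2.72, SE 0.08) fell less than LHCA3 (log2 -3.75, SE 0.09). Of the scarce members, LHCA6 went from 20.5, 35.5 and 49.2 RPM to 0.304, 0.525 and 0.684 RPM (log2 -5.09, SE 0.10), its lowest library with 9 reads. LHCA5 was the least lowered of all 42 genes, from 68.4, 77.8 and 95.1 RPM to 21.7, 32.6 and 41.6 RPM (log2 -1.34, SE 0.09). The 2 scarce genes thus differ in starved leaves although both were low in control.

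The photosystem I genes are PSAD1 (AT4G02770), PSAD2 (AT1G03130), PSAE1 (AT4G28750), PSAE2 (AT2G20260), PSAF (AT1G31330), PSAG (AT1G55670), PSAH1 (AT3G16140), PSAH2 (AT1G52230), PSAK (AT1G30380), PSAL (AT4G12800), PSAN (AT5G64040) and PSAO (AT1G08380). Among them, PSAK and PSAH2 fell furthest and PSAE2 and PSAN least. PSAK, a subunit at the antenna side, fell from 902, 1287 and 1715 RPM to 14.5, 25.1 and 42.4 RPM (log2 -5.73, SE 0.10). PSAH2, of a subunit near the docking site of mobile antenna, fell from 1037, 1545 and 2059.8 RPM to 8.41, 37.1 and 61 RPM (log2 -5.69, SE 0.09). The changes of PSAD1 (-5.35), PSAG (-4.92), PSAO (-4.67) and PSAH1 (-4.09) followed, all on the log2 scale. PSAE1 (-3.52), PSAD2 (-3.42), PSAL (-3.40) and PSAF (-3.28) lay between. PSAF, PSAD and PSAE form the sites where plastocyanin and ferredoxin bind. PSAN, on the lumenal side, kept 90.6, 247 and 476 RPM of 1111, 1333 and 1679.9 RPM (log2 -2.48, SE 0.11), and PSAE2 kept 89.3, 159 and 332 RPM of 595, 752 and 1362 RPM (log2 -2.33, SE 0.11).

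The photosystem II genes are PSBO1 (AT5G66570), PSBO2 (AT3G50820), PSBP1 (AT1G06680), PSBQ1 (AT4G21280), PSBQ2 (AT4G05180), PSBR (AT1G79040), PSBW (AT2G30570), PSBX (AT2G06520), PSBY (AT1G67740) and PSBS (AT1G44575). Among them, PSBS fell furthest and PSBO2 least. PSBS, which encodes the pH sensor of energy-dependent quenching, went from 305, 411 and 505 RPM to 0.786, 2.72 and 5.25 RPM (log2 -7.07, SE 0.09, adjusted p = 5.13e-33). PSBQ1, of the oxygen-evolving complex, was next, from 760.4, 983 and 1309 RPM to 7.93, 23.1 and 35.9 RPM (log2 -5.59, SE 0.09). The groups do not overlap for either gene. At the other end, PSBO2 kept 173, 369 and 543 RPM of 691, 1050.0 and 1339 RPM (log2 -1.53, SE 0.10). PSBY, a small subunit, kept 199, 684 and 784 RPM of 1246, 2034 and 2258 RPM (log2 -1.84, SE 0.08). PSBO1, which encodes the main manganese-stabilising protein, fell by a log2 of 2.77, and PSBR changed by -2.82. PSBR, at 1498 ± 927 RPM per kb over the 10 starved libraries, was the highest of the 42 there, with LHCB4.1 (931 ± 218) after it, within the spread of PSBR. PSBX (-4.73), PSBP1 (-4.19), PSBQ2 (-3.88) took the middle on the log2 scale, with PSBW between PSBP1 and PSBQ2.

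**Figure D3:**
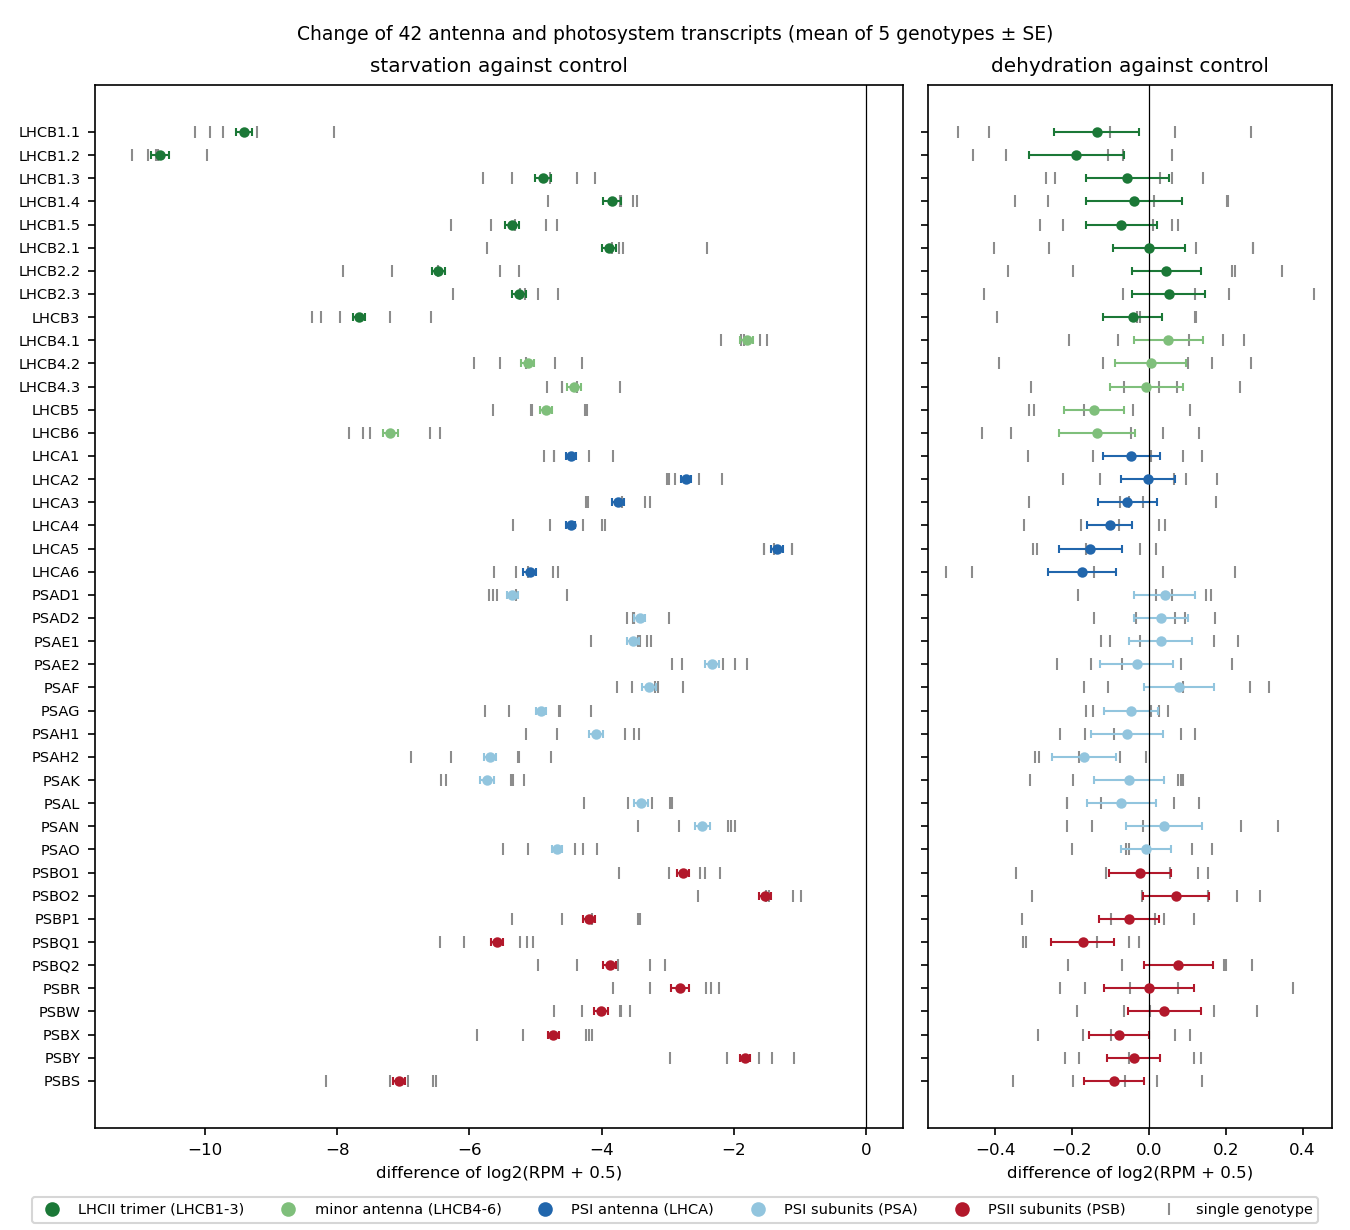
Change of each of the 42 transcripts (rows) against control, as a difference of log2(RPM + 0.5), under starvation (left) and dehydration (right, a finer scale); coloured points are the mean of 5 genotypes ± SE and grey ticks the single genotypes. Starvation changes run from -10.68 to -1.34 with all ticks left of 0, and dehydration means run from -0.19 to 0.08 around 0.

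The order of the members under starvation was alike in the 5 genotypes. Over the 42 genes, the change in WT and in each mutant, which share no library, had a Pearson correlation of 0.957 for atg7-2, 0.984 for DSK2 RNAi, 0.972 for bes1-D and 0.987 for bri1-301, given as a description since the genes of a library are not independent. Over the 42 genes the mean change and the mean control RPM per kb had a Pearson correlation of -0.0366 and a Spearman correlation of 0.0455, so highly and weakly expressed members were lowered to like degrees. Both measures share the control libraries.

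Close gene pairs were compared within each library, where library scaling cancels. For 11 pairs and both treatments, an exact two-sided permutation test within genotypes was run on the log2 ratio of (RPM + 0.5), with p adjusted over the 22 tests. Under starvation 10 of 11 pair ratios changed, each in the same direction in 5 of 5 genotypes and each at p = 1e-05 in the exact permutation test, the smallest that its 100000 arrangements allow (adjusted p = 2.2e-05). The ratio of LHCB4.1 to LHCB4.2 was 0.16 to 0.54 in control libraries and 3.21 to 4.15 in starved ones, a mean change of 3.31. The ratio of LHCB2.1 to LHCB2.2 turned from -0.51 to -0.09 to 1.05 to 3.01, a change of 2.59. That of PSAD1 to PSAD2 turned the other way, from 0.32 to 0.64 to -1.81 to -1.01, a change of -1.92. In these 3 pairs the starved and control libraries do not overlap. In the LHCB2 and PSAD pairs the sign of the log2 read ratio reversed.

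The other ratios moved by smaller or similar amounts. LHCB4.3 to LHCB4.1 changed by -2.62 and LHCB2.3 to LHCB2.1 by -1.37. PSAH1 to PSAH2, of docking-site subunits, changed by 1.60 and PSAE1 to PSAE2, of the ferredoxin side, by -1.19. In the oxygen-evolving complex PSBQ1 to PSBQ2 changed by -1.71 and PSBO1 to PSBO2 by -1.25. LHCA2 to LHCA3 changed by 1.03. For LHCA1 to LHCA4 the mean change was 0.00 (p = 0.967 in the exact permutation test), with ratios of -0.29 to 0.57 in control and -0.43 to 0.64 in starved libraries. LHCB2.1 and LHCB2.2 share 22.7% and 28.2% of their 50-base windows, so part of their reads cannot be told apart by sequence. The LHCB4, PSAD, PSAE, PSAH, PSBO and PSBQ pairs share no 50-base window.

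**Figure D4:**
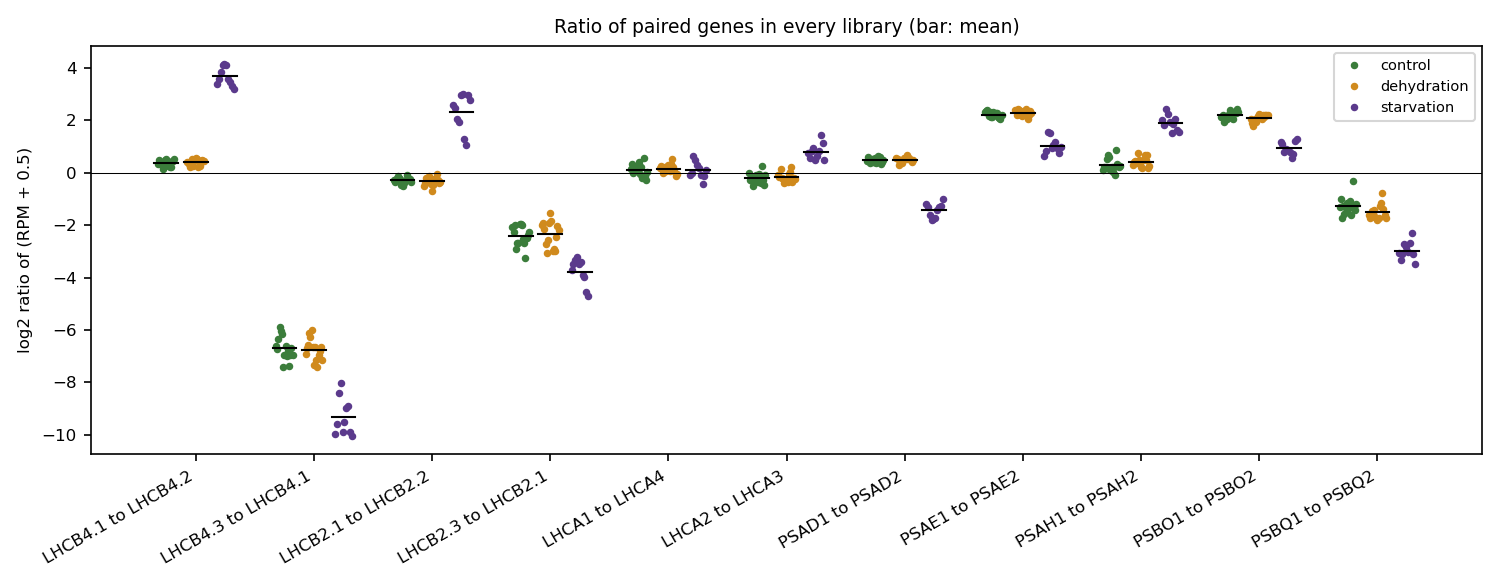
Log2 ratio of (RPM + 0.5) of the genes of 11 pairs (horizontal axis) in every library (points), coloured by treatment, with the mean as a bar. Starved libraries stand apart from control ones in all changed pairs but LHCB2.3 to LHCB2.1, whose ranges overlap slightly, and most in LHCB4.1 to LHCB4.2 (3.21 to 4.15 against 0.16 to 0.54), whereas the LHCA1 to LHCA4 ranges of the treatments overlap.

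The pairs with the widest and the second widest change in favour of the gene named first, LHCB4.1 with LHCB4.2 and LHCB2.1 with LHCB2.2, are shown by the 120 bases before their annotated starts in RefSeq TAIR10.1. The windows are chr5:208746-208865 (plus strand) for LHCB4.1, chr3:2717437-2717556 (plus strand) for LHCB4.2, chr2:1824481-1824600 (minus strand) for LHCB2.1 and chr2:1800473-1800592 (minus strand) for LHCB2.2. No other annotated gene reaches into these 120 bases, although AT3G08930 reaches into the 250 bases before LHCB4.2, and capitals mark matches to any of 6 motifs on either strand.
LHCB4.1: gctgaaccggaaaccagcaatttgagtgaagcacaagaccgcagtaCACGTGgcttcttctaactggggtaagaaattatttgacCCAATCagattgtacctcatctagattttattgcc
LHCB4.2: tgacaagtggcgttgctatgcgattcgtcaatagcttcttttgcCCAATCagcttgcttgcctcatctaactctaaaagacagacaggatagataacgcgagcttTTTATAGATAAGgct
LHCB2.1: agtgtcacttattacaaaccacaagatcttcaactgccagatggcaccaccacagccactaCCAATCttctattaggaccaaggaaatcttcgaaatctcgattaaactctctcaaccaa
LHCB2.2: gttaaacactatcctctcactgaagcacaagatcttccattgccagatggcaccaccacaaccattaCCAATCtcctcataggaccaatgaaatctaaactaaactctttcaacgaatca
The capitals in LHCB4.1 are a G-box (CACGTG) and a CCAATC, and those in LHCB4.2 a CCAATC and, side by side, a TATA box (TATAAA, read on the other strand) and an I-box (GATAAG). LHCB2.1 and LHCB2.2 each carry a CCAATC, and the letters around it are much alike. None of the motifs contains another, and the G-box reads the same on both strands.

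In the 250 bases before the start, the G-box was found in 8 of the 42 genes (19%) and in 6.49% of 27443 nuclear protein-coding genes. CCAATC was found in 11 (26.2%, against 10.2%), and GATAAG in 9 (21.4%, against 12.3%). The CCA1-binding site (AAAAATCT) was found in 5 (11.9%, against 6.69%), the evening element (AAAATATCT) in 1 (2.38%, against 2.36%) and TATAAA in 19 (45.2%, against 47.3%). A match is a run of letters and does not show that a factor binds there.

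After 4 hours of dehydration the antenna and photosystem transcripts were near their control levels. None of the 42 was called by limma in the mean response of the 5 genotypes, in which 17.9% of all genes tested were called. At an unadjusted p under 0.05 there were 2, PSBQ1 (log2 -0.17, SE 0.08, adjusted p = 0.161) and PSAH2 (log2 -0.17, SE 0.08, adjusted p = 0.175), named after their values were seen, and edgeR and DESeq2 called none. The mean changes ran from a log2 of -0.19 for LHCB1.2 to 0.08 for PSAF, with a median of -0.04 beside -0.01 over all genes, and their SEs from 0.06 to 0.13. LHCB1.2, for example, had 1384, 2676 and 6825 RPM in the dehydrated libraries, which overlaps its control range. The 42 genes together held 10.8% to 20.2% of dehydrated libraries (median 14.6%). Without the 7 libraries set apart by their length slope, 4 members were called lower: PSAH2 (log2 -0.23), PSBQ1 (-0.21), LHCA5 (-0.22) and LHCB5 (-0.19). These 4 of 42 stand beside the 17.9% of all genes called in the main fit. The share of all genes called in the reduced fit is not given here.

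In single genotypes too, no member was called under dehydration by limma, edgeR or DESeq2. The SEs of these log2 changes ran from 0.13 to 0.28. In simulated data for WT dehydration, limma recovered 49% of 2-fold and 98% of 4-fold changes, so small changes could be missed. Over all genes tested the calls were 0.298% in WT, 0% in atg7-2, 3.82% in DSK2 RNAi, 1.18% in bes1-D and 0.797% in bri1-301. At an unadjusted p under 0.05 there were 0 members in WT, 3 in atg7-2, 1 in DSK2 RNAi, 0 in bes1-D and 0 in bri1-301. The median change was a log2 of 0.07 in WT, -0.29 in atg7-2, -0.15 in DSK2 RNAi, 0.02 in bes1-D and 0.14 in bri1-301, and all 42 lay below 0 in atg7-2. No interaction of a mutant with dehydration called a member by any of the 3 tools, and at an unadjusted p under 0.05 there were 3 for atg7-2 and 0 for the other mutants. Over all genes these interactions called 0% for atg7-2, DSK2 RNAi and bri1-301 and 0.0656% for bes1-D. Of the pair ratios, PSBO1 to PSBO2 changed by -0.09 (exact permutation p = 0.01, adjusted p = 0.0201) and PSBQ1 to PSBQ2 by -0.25 (exact permutation p = 0.016, adjusted p = 0.0293), both in 5 of 5 genotypes. The PSBQ change lost its call without WT control replicate 2, WT dehydration replicate 2, bes1-D dehydration replicate 1 or bes1-D dehydration replicate 2. The ratio of PSBQ1 to PSBQ2 ran from -1.81 to -0.78 in dehydrated and -1.72 to -0.33 in control libraries, which overlap.

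Without treatment, members were called against WT in bes1-D only. In bes1-D 2 trimer antenna genes were higher and a photosystem I gene lower than in WT, 3 of 42 beside 15.7% of all genes called. LHCB1.2 was 6269, 4993 and 10406 RPM in the 3 bes1-D libraries and 3136, 3611 and 2704 RPM in WT (log2 1.14, SE 0.28, adjusted p = 0.00467). LHCB1.4 was 8628, 5846 and 12509 RPM against 6014, 6271 and 3172 RPM (log2 0.80, SE 0.28, adjusted p = 0.0494). PSAD2, of the ferredoxin-docking subunit, was 2361, 1679 and 2240.0 RPM against 3333, 2694 and 2891 RPM (log2 -0.52, SE 0.16, adjusted p = 0.0219). The bes1-D and WT libraries do not overlap for LHCB1.2 and PSAD2 and overlap for LHCB1.4. The highest bes1-D value of LHCB1.2 and LHCB1.4 is replicate 3, 1 of the libraries set apart by length slope. Without it the difference of LHCB1.2 was 0.84 and that of LHCB1.4 0.53, and neither was called. LHCB1.4 was not called without bes1-D control replicate 1 either (0.80), nor PSAD2 without bes1-D control replicate 2 (-0.36). Without bes1-D control replicate 2 the count rose to 7, and without WT control replicate 1 or WT control replicate 3 it was 1. The main fit called 15.7% of all genes in this comparison, and the shares of the reduced fits are not given here.

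In the other mutants limma called no member in control leaves, and neither did edgeR or DESeq2. Over all genes the calls were 4.74% in atg7-2, 0.0656% in DSK2 RNAi and 0.963% in bri1-301. In atg7-2 38 of 42 lay below WT (median log2 -0.24), 9 of them with an unadjusted p under 0.05, and PSAH2 came nearest to a call, with 1037, 1059.7 and 1092 RPM against 1928, 1443 and 1522 RPM in WT (adjusted p = 0.0533; chosen after its values were seen). In bri1-301 all 42 lay below WT (median log2 -0.35), 16 with an unadjusted p under 0.05, while the median of all genes was 0.16. Without bri1-301 control replicate 3 the bri1-301 count was 4, and without WT control replicate 2 it was 1. The share of 0.963% of all genes is that of the main fit, and those of the reduced fits are not given here. In DSK2 RNAi 31 lay below WT (median -0.10), 1 with an unadjusted p under 0.05.

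In the main limma fit, starvation lowered the antenna and photosystem transcripts more in atg7-2 than in WT. The difference between the starvation responses was called for 30 of 42 members, all in the direction of a stronger fall in atg7-2, beside 28.2% of all genes tested. The median difference of the members was a log2 of -1.08 and that of all genes -0.29. All 10 PSB genes were called, with 8 of 12 PSA, 6 of 9 trimer antenna, 3 of 5 minor antenna and 3 of 6 LHCA genes. The 42 genes together held 0.613% ± 0.114 of starved atg7-2 libraries (SD, n = 2), against 1.35% ± 0.167 in WT, 0.855% ± 0.0851 in DSK2 RNAi, 1.42% ± 0.226 in bes1-D and 1.29% ± 0.272 in bri1-301. In 38 of 42 both starved atg7-2 libraries lay below both starved WT libraries, as they did in 52.5% of all genes tested. In 25 of 42 they lay below all 8 starved libraries of the other genotypes, beside 29.1% of all genes. The markers of leaf cells differed in the same libraries. Of the 3 mesophyll markers, RBCS1A (-0.81) and CA1 (-0.93) were called lower in the same interaction, and the 3 summed to 522 to 675 RPM in starved atg7-2 against 1105 to 1182 RPM in starved WT. Of the 4 epidermis markers (184 to 241 RPM against 525.6 to 526.5 RPM) PDF1 (-2.96) and CUT1 (-1.78) were called lower and ATML1 (1.11) higher. Of the 4 guard cell markers (11.1 to 11.6 RPM against 18.4 to 23.0 RPM) MYB60 (-1.45) was called lower, and of the 6 floral markers (24.9 to 28.7 RPM against 17.4 to 20.9 RPM) SEP1 (-1.39) and SEP3 (-1.25). None of the 3 phloem markers (27.0 to 28.4 RPM against 37.0 to 37.2 RPM) or the 3 xylem markers (0.613 to 0.82 RPM against 0.1035 to 0.202 RPM) was called by limma. The part of these cell markers in the result was not tested.

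The size of the count depends on the tool and the scaling. edgeR called 13 of 42 members lower beside 23.0% of all genes, DESeq2 10 of 42 beside 20.2%, and limma after median-of-ratios scaling 8 of 42 beside 18.3%. The DESeq2 share and the scaled limma share were near those of all genes. Median-of-ratios scaling moved the median of all genes from -0.29 to -0.03 and that of the members from -1.08 to -0.74. All 30 called members stayed below 0. The slope of expression on transcript length also differed, at 0.38 and 0.46 in the starved atg7-2 libraries and -0.48 and -0.30 in the starved WT ones. With the length trend removed the member median was -0.68, 21 members were called lower beside 24.7% of all genes, and 2, LHCA6 and PSAE1, were called higher.

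The 12 members with the lowest adjusted p were named by rule. LHCA4 was 148 and 119 RPM in the 2 starved atg7-2 libraries and 386 and 324 RPM in starved WT (log2 -1.35, SE 0.21, adjusted p = 1.32e-05). LHCB2.1, at 37.1 and 28.1 RPM against 158 and 116 RPM, had the largest difference (log2 -2.05, SE 0.33, adjusted p = 2.54e-05). PSBS was 0.953 and 0.786 RPM against 5.25 and 3.72 RPM (log2 -1.62, SE 0.28). For all 3 the starved atg7-2 libraries were the lowest of the 10 starved libraries. PSBX (-1.65), PSBY (-1.35), PSBQ2 (-1.69), PSBQ1 (-1.31) and PSBO1 (-1.31) are the photosystem II genes of the 12, with differences on the log2 scale. PSAH1 (-1.63), PSAH2 (-1.64) and PSAO (-1.09) are those of photosystem I, and LHCB2.2 (-1.43) the remaining antenna gene. Not called were LHCB1.2, at 1.5 and 0.205 RPM against 1.38 and 1.34 RPM (log2 -0.02, SE 0.44), and PSAD2, at 243 and 195 RPM against 256 and 257 RPM (log2 0.02, SE 0.25), both chosen after their values were seen. The 12 members not called range from a difference of -0.94 to 0.45.

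For the other mutants few or no differences from the starvation response of WT were called. In DSK2 RNAi limma, edgeR and DESeq2 called no member, beside 0.207% of all genes by limma, although 40 of 42 differences lay below 0, with a median of -0.71 and 22 members at an unadjusted p under 0.05. The length slopes of its starved libraries were 0.18 and 0.35, and with the length trend removed the median was -0.32 and 36 differences lay below 0. After median-of-ratios scaling the member median was -0.77 in DSK2 RNAi and -0.74 in atg7-2. With edgeR these medians were -0.89 and -0.88, and with DESeq2 -0.87 and -0.76. In bri1-301 none was called by any of the 3 tools, beside 0.893% of all genes, the median was 0.26 and 8 members had an unadjusted p under 0.05. In bes1-D 2 antenna genes were called, a minor and a trimer one, beside 4.45% of all genes. LHCB5 was 93.1 and 56 RPM in starved bes1-D and 179.5 and 156 RPM in starved WT (log2 -1.39, SE 0.27, adjusted p = 0.00124). LHCB2.2 was 55.9 and 81.9 RPM against 26.2 and 20.4 RPM (log2 1.23, SE 0.32, adjusted p = 0.0178). Both starved bes1-D libraries are among those set apart by length slope, so these differences could not be recomputed without them. With the length trend removed, LHCB5 was -1.42 and LHCB2.2 1.18, and both were called. The LHCB2.2 call was lost with edgeR, DESeq2, median-of-ratios scaling or a fit of the compared libraries alone, and without WT control replicate 1, WT starvation replicate 2, bes1-D control replicate 2 or bes1-D starvation replicate 2.

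**Figure D5:**
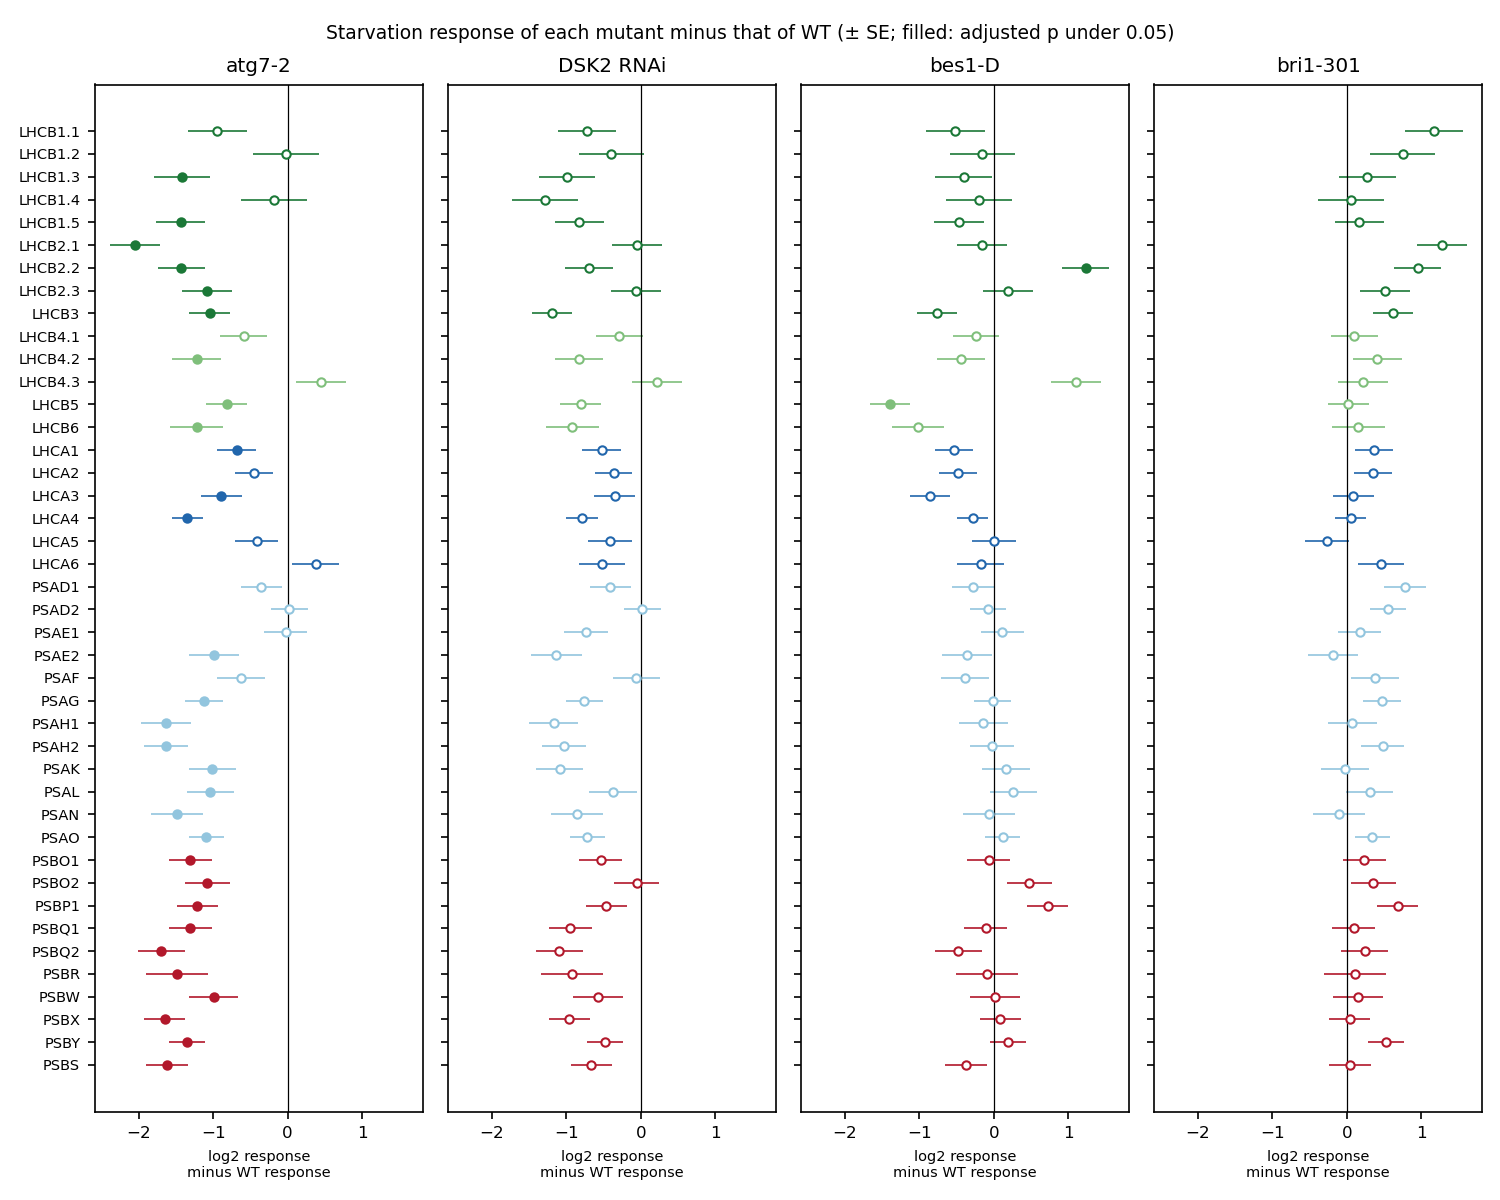
Starvation response of each mutant minus that of WT (horizontal axis, log2 scale, points ± SE) for the 42 transcripts (rows, coloured by class as trimer antenna, minor antenna, LHCA, PSA and PSB from top to bottom); filled points are called. In atg7-2 39 of 42 points lie left of 0 and 30 are filled, and in bes1-D LHCB2.2 and LHCB5 are filled on opposite sides of 0.

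Most genes that work with the antenna and photosystems fell too, with list medians nearer 0. Under starvation (mean of 5 genotypes), where 48.9% of all genes tested were called lower, the lists were as follows. Of 15 other photosystem and electron transport genes 14 were called lower and 1 higher, with a median log2 of -2.50. PSBTN, of a small photosystem II subunit, changed by -4.47 and FNR2, a ferredoxin-NADP reductase gene, by -4.44, while PGRL1B, of cyclic electron flow, rose (1.23). All 3 nuclear ATP synthase genes fell, ATPD with a change of -3.80. Of 18 chlorophyll synthesis genes 17 fell and 1 rose (median -2.93). PORB and PORC, the light-dependent protochlorophyllide reductases, changed by -6.57 and -5.09, and HEMA2, a glutamyl-tRNA reductase gene, rose (1.19). Of 12 genes for antenna import and insertion or light-harvesting-like proteins, 11 were tested and 10 fell (median -1.65). LIL3:1, of a light-harvesting-like protein of chlorophyll synthesis, changed by -3.01 and LTD, which guides antenna proteins to the thylakoid, by -2.94, and the insertase gene ALB3 was not called (0.26). Of 9 genes of state transition and photosystem II repair 7 fell and 1, FTSH8, rose (0.63), and the median was -0.76. FTSH1, of the protease that degrades damaged photosystem II protein, changed by -1.47. The kinase gene STN7 was not called (0.14).

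Of 11 transcription factor genes known to act on photosynthesis genes, 6 fell and 4 rose. The share that fell was near the 48.9% of all genes tested called lower. GLK1, an activator of antenna and chlorophyll genes, went from 77.3, 173 and 303 RPM in control to 10, 29.3 and 47.2 RPM (log2 -2.51, SE 0.11), and GLK2 changed by -1.72. The clock genes LHY and CCA1 rose, LHY from 1.33, 3.1 and 6.37 RPM to 12.1, 74.7 and 110.2 RPM (log2 4.08, SE 0.15) and CCA1 by 3.40. These 2 genes peak around dawn, so the starved and control libraries differ in clock gene levels, and the part of this in the changes of the antenna genes was not tested. HY5 (1.81) and CGA1 rose as well, and GNC was not called (-0.01). Genes of these lists beyond the largest called changes were named after their values were seen. In the interaction of atg7-2 with starvation 8 of the 11 were called lower, among them GLK2 (-1.97) and GLK1 (-1.15). So were 12 of the 15 electron transport genes and 8 of the 11 import genes, beside 28.2% of all genes tested. These are counts of the main limma fit, in which the median of all genes was -0.29.

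Markers of other leaf cells moved with starvation too, in a comparison that called 48.9% of all genes tested lower. All 3 xylem markers fell, from a summed 19.9 to 68.3 RPM in control to 0.0682 to 0.82 RPM, and all 3 phloem markers, from 75.4 to 166 RPM to 13.2 to 69.9 RPM. Of the guard cell markers 3 of 4 fell (32.4 to 91.2 RPM in control and 6.34 to 34.2 RPM starved), and of the epidermis markers 3 of 4 (584 to 972 RPM and 184 to 609 RPM). The 3 mesophyll markers changed by a log2 of -4.11 (RBCS1A), -3.51 (RCA) and -6.18 (CA1). The 6 floral markers summed to 1.00 to 13.5 RPM in control and 10.5 to 38.9 RPM under starvation, with 1, PI, called higher (3.34) and 2 lower. The part of cell composition in the starvation changes was not tested. Under dehydration (mean of 5 genotypes) 4 of 15 electron transport genes (PPL1 -0.34, PSB28 -0.28), 2 of 18 chlorophyll genes (CHLM -0.28, CHLG -0.18), 4 of 11 import genes (LTD -0.36, LIL3:1 -0.32) and 1 of 9 repair genes (STN8 -0.30) were called lower, beside 17.9% of all genes called in either direction. An import list gene was called higher, and none of 3 ATP synthase and 11 transcription factor genes was called by limma, with 0 and 4 of them at an unadjusted p under 0.05.

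The authors' deposited table gives its own yes or no for each gene and comparison, by a test that the sources at hand do not name. It marks all 42 genes for starvation in WT, atg7-2, DSK2 RNAi and bes1-D, where the authors' deposited table marks 50.5%, 57.9%, 51.3% and 49.7% of its 28775 genes, and 41 in bri1-301, beside 34.2%. For dehydration the authors' deposited table marks 5 in DSK2 RNAi (LHCB1.1, LHCB1.2, LHCA6, PSAH2 and PSBQ1; 12.4% of all genes) and 0 in the other genotypes (1.93% of all genes in WT, 0.386% in atg7-2, 1.88% in bes1-D and 5.7% in bri1-301). For control leaves against WT, the authors' deposited table marks 4 in atg7-2 (LHCB1.2, LHCB2.3, PSAG and PSAH2; 9% of all genes), 5 in bes1-D (LHCB1.2, LHCB1.4, LHCB1.5, PSAE2 and PSBR; 15.7%), 3 in bri1-301 (LHCB4.3, PSAO and PSBR; 2.1%) and 0 in DSK2 RNAi (0.33%). LHCB1.2 and LHCB1.4 in bes1-D are thus marked there and called here, whereas PSAD2 is called here only.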

How the data were processed

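RNA-seq of leaves was analysed in 40 of 64 libraries, and the other 24, of other genotypes, were not analysed here. The authors deposited 1 signal per gene and library, named RPM per the file headers. It is called a signal here because columns do not sum to 1 fixed total (985308 to 1023136 RPM), where RPM summing to a fixed total had been assumed, and the test is the same. Per the submitters' processing notes GSNAP, DESeq2 and TAIR10 were used, with no versions or roles given. Per the labels, reads were single ends of 50 bases. Lines with no gene name (4591 of 33366) were set aside. The values of a library were whole multiples of 1 read (100% within a tolerance of 0.01 reads beyond the rounding of the file), at 26.3 to 29.8 reads per RPM, so the reads could be recovered, and limits from read counts cover counting error only.

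Groups came from the labels. The main test was limma (3.58.1, R 4.3.3; eBayes with trend) on log2(RPM + 0.5) for the 19824 genes that reached 1 RPM in 2 or more libraries. It had 25 residual degrees of freedom and was two-sided, with Benjamini-Hochberg adjustment over all genes within each of 24 comparisons. Pair ratios were tested by exact permutation (SciPy 1.17.1, Python 3.11.15). edgeR 4.0.16 and DESeq2 1.42.0 on recovered reads were alternatives, with other pseudocounts (0.1 and 1), filters, scaling, a removed length trend, a replicate block and left-out libraries. Transcript lengths, sequences and motifs were read from RefSeq TAIR10.1, as the deposited table holds no coordinates. The fit was tested on simulated data.

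The members and lists were chosen with earlier results of these data known. Genes were named by rule: the most abundant of each class per kb in WT control, the 2 called members of each class with the largest mean change under each treatment, members called in a mutant or an interaction (the 12 of lowest adjusted p where more), both genes of every pair, and up to 2 called genes of each pathway list. Other named genes complete a class or a count.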

Additional observations from a re-analysis of the deposited data

Results flagged for a closer look

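The starvation response of 32 gene and mutant combinations was called different from that of WT, each by limma's interaction test. The 30 calls in atg7-2 stood beside 28.2% of all genes called lower, and the 2 in bes1-D beside 4.45% called. For atg7-2 the count was 8 with median-of-ratios scaling (18.3% of all genes called lower), 13 with edgeR (23.0%) and 10 with DESeq2 (20.2%). All values in brackets are differences of log2 changes, mutant minus WT. In atg7-2 the trimer antenna genes were LHCB2.1 (-2.05), LHCB1.5 (-1.44), LHCB2.2 (-1.43), LHCB1.3 (-1.42), LHCB2.3 (-1.08) and LHCB3 (-1.05). The minor antenna genes were LHCB4.2 (-1.22), LHCB6 (-1.22) and LHCB5 (-0.82), and the photosystem I antenna genes LHCA4 (-1.35), LHCA3 (-0.89) and LHCA1 (-0.69). Of the photosystem I subunits they were PSAH2 (-1.64), PSAH1 (-1.63), PSAN (-1.48), PSAG (-1.12), PSAO (-1.09), PSAL (-1.04), PSAK (-1.01) and PSAE2 (-0.98). Of photosystem II they were PSBQ2 (-1.69), PSBX (-1.65), PSBS (-1.62), PSBR (-1.48), PSBY (-1.35), PSBO1 (-1.31), PSBQ1 (-1.31), PSBP1 (-1.21), PSBO2 (-1.08) and PSBW (-0.99). In bes1-D they were LHCB2.2 (1.23) and LHCB5 (-1.39), from 2 starved libraries that both stand apart by length slope.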

How the results depend on the processing

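The count of 42 members lower under starvation, in each genotype and on average, held under 11 alternatives and without each library in turn, apart from bes1-D, where median-of-ratios scaling left PSBO2 uncalled, and from the fit without the 7 libraries set apart, which gives no value for bes1-D or for the mean. The 10 pair ratios called under starvation held likewise under both pseudocounts and without each library. Without the libraries set apart, the count was 4 in the mean dehydration response and 2 for atg7-2 in control. The main fit called 17.9% and 4.74% of all genes in these comparisons, and the shares of the reduced fit are not given here. For starvation interactions this fit keeps 1 starved WT library. The member median difference was then a log2 of -0.56 for DSK2 RNAi and 0.18 for bri1-301. In control, the atg7-2 count was 1 with a filter at 5 RPM, and the bes1-D count (3) was 1 with median-of-ratios scaling and 1 with only the compared libraries. For starvation interactions, the atg7-2 count (30) was 8 with median-of-ratios scaling, 13 with edgeR and 10 with DESeq2. The shares of all genes called lower were 18.3%, 23.0% and 20.2%. The DSK2 RNAi count was 1 with a pseudocount of 1, beside 0.343% of all genes called. The bes1-D count (2) was 1 with median-of-ratios scaling, the compared libraries alone, edgeR or DESeq2, beside 2.51% to 5.58% of all genes called. With the length trend removed the bes1-D count was 4, beside 5.17% of all genes, and the bri1-301 count 1, beside 0.805%. The interaction of PSAE2 in atg7-2 turned to 0.11 (not called) with the length trend removed, and the causes of these shifts were not tested. Whether the replicate numbers pair the samples was not settled, and the main fit did not pair them. The correlation of same-numbered deviations ran from -0.43 to 0.50 over 25 pairs and was over 0.1 in 16. No such correlation was computed for differently numbered samples, so these values cannot decide it. With a replicate block the count was 1 for atg7-2 in control (PSAH2), DSK2 RNAi with starvation (LHCB3) and bri1-301 with starvation (LHCB2.1), and the block moved no other count by more than 1.5 times. Leaving out 1 library at a time gave 0 to 2 for atg7-2 in control (2 without bri1-301 control replicate 3), 1 to 7 for bes1-D in control, 0 to 4 for bri1-301 in control, 20 to 31 for atg7-2 with starvation, 0 to 1 for DSK2 RNAi with starvation, 1 to 4 for bes1-D with starvation (4 without bes1-D starvation replicate 1) and 0 to 2 for bri1-301 with starvation (2 without bri1-301 control replicate 3 or bri1-301 starvation replicate 1). For pair ratios called under dehydration it gave 1 to 2. Shares of all genes called in the fits that leave out 1 library are not given here. Of 15055 single-gene alternatives 14904 stayed as they were, 150 lost their call and 1 turned. Starved values of LHCB1.2, LHCB1.1, LHCA6, LHCB4.3 and PSBS rest on under 300 reads a library.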
